A study of Mus musculus with 9 samples.

Results

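The splicing genes described here are the protein-coding genes whose symbols begin with Srsf and a number, Snrp, Snrnp, Sf3a, Sf3b, Hnrnp, Prpf, Luc7l, or Rbm and a number. They were chosen by name and biotype from the table of 56748 genes, with earlier results of these data known. The rule found 114 genes, of which 110 passed the filter on low counts, and Rbm8a2, Rbm42, Rbm44 and Rbm31y did not (at most 11 counts over all libraries). Bulk RNA sequencing measured brain tissue, taken without the cerebellum, of 7-month-old mice in 3 genotypes with 3 libraries each, 1 mouse per library. 5xFAD/Cd5l tg/wt mice carry the 5xFAD transgenes and, in addition, a transgene that forces expression of mouse Cd5l under the human PDGF-B promoter. 5xFAD mice carry human transgenes with familial Alzheimer mutations under the neuronal Thy1 promoter and accumulate amyloid. Wild-type mice carry neither.

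Introns are removed from pre-mRNA by the spliceosome, which is built from small nuclear ribonucleoproteins (snRNPs). The U1 snRNP recognises the 5′ splice site, the U2 snRNP the branch point, and the U4/U6.U5 tri-snRNP then joins. A minor spliceosome with U11 and U12 acts on a rare class of introns. SR proteins, which carry domains rich in arginine and serine, mostly favour exon inclusion, and hnRNP proteins often oppose it. Many of these genes regulate their own output through transcripts that keep an intron or carry an early stop codon, and neurons use alternative splicing extensively.

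The libraries held 14575416 to 17865150 counts. Cd5l was counted 2553, 2822 and 3551 times in 5xFAD/Cd5l tg/wt libraries, with 0 counts in each 5xFAD library and 1 count in all over the wild-type libraries. Neuronal markers summed to 7289 to 8208 CPM (counts per 1e6 of the scaled library size) over the 9 libraries. Wild-type library 3 stood apart in markers of cerebellar granule and hindbrain neurons, at 873 CPM against 165 to 217 CPM in the other 8 libraries. All 7 of these markers were lower in 5xFAD relative to wild-type, with a median log2 fold change of -3.29. There 1 passed edgeR's test (described below) and 1 had no overlap between libraries. All 7 were also lower in 5xFAD/Cd5l tg/wt relative to wild-type (median -5.11, 2 passed, 5 without overlap). The summed level was 217 and 192 CPM in wild-type libraries 1 and 2, 187 to 206 CPM in 5xFAD and 165 to 189 CPM in 5xFAD/Cd5l tg/wt libraries. How far the medians rest on wild-type library 3 was not tested. 5xFAD/Cd5l tg/wt library 2 was lowest in oligodendrocyte markers, at 4609 CPM against 6298 to 8138 CPM. In bulk tissue, fewer cells of a type and less RNA per cell cannot be told apart.

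Between 5xFAD and wild-type mice, 18 of the 110 tested splicing genes fell and none rose. Among all 17575 tested genes 2.44% fell and 1.06% rose, 3.5% in all (edgeR's quasi-likelihood test, Benjamini-Hochberg adjusted p under 0.05), against 16.4% of the splicing genes that fell. At an unadjusted p under 0.05, 23 of the 110 members were lower and 3 higher, where 1883 and 978 of all 17575 tested genes were. DESeq2 called 1 member higher, Hnrnpc, and limma-voom 0. Between 5xFAD/Cd5l tg/wt and 5xFAD mice, 22 splicing genes rose, or 20% of those tested, against 5.34% of all genes, and 1 fell, against 0.888% of all genes (6.23% in either direction). All 18 genes that fell in 5xFAD were among the 22. Here 27 members were higher and 3 lower at an unadjusted p under 0.05, where 2507 and 1407 of all tested genes were. The 2 comparisons share the 5xFAD libraries, so that they are not independent. Set against wild-type, 5xFAD/Cd5l tg/wt mice had no splicing gene that passed, where 1.38% of all genes rose and 0.199% fell, 1.58% in all. In that comparison 6 members had an unadjusted p under 0.05, where 2177 of all 17575 tested genes did. DESeq2 and limma-voom called 0 members. Without 5xFAD/Cd5l tg/wt library 1, Srsf5 passed as higher.

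Of the 110 members, 87 passed in no comparison. The members' median log2 fold change was -0.04 in 5xFAD relative to wild-type, beside -0.01 for all tested genes, and 0.06 in 5xFAD/Cd5l tg/wt relative to 5xFAD, beside 0.01. Summed over the 18 genes that fell, the level was 2323, 2760 and 2758 CPM in 5xFAD/Cd5l tg/wt libraries, 1665, 1608 and 1748 CPM in 5xFAD libraries and 2302, 2489 and 2376 CPM in wild-type libraries. The other 92 tested members summed to 7019 to 7442 CPM in 5xFAD/Cd5l tg/wt, 7018 to 7161 CPM in 5xFAD and 7076 to 7387 CPM in wild-type libraries, ranges that overlap.

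The gene with the smallest p in both comparisons was Snrnp70, which encodes the U1-70K protein that holds the U1 RNA (chromosome 7, 45025877 to 45045166, minus strand, GRCm39). Luc7l3 and Prpf39 encode relatives of U1 proteins first described in yeast, and Srsf11 encodes a protein of the SR family. The promoters of these 4 genes are shown as examples from the 18 members that passed in both comparisons, and no fixed rule picked them. Each runs from 250 bases before to 50 bases after a RefSeq transcript start (GRCm38.p6, a build older than that of the counts). Capitals mark exact matches, on either strand, to CCGGAAG (the core motif of ETS factors) and GGGCGG (the GC box). RefSeq lists 2 starts for Srsf11, of which the first is shown.
Snrnp70: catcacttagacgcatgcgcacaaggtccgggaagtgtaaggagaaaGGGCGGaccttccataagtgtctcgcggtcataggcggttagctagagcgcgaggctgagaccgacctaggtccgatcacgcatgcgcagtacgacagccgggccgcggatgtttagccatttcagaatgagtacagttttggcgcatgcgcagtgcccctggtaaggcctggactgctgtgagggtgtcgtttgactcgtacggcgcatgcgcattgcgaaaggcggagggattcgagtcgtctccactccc
Luc7l3: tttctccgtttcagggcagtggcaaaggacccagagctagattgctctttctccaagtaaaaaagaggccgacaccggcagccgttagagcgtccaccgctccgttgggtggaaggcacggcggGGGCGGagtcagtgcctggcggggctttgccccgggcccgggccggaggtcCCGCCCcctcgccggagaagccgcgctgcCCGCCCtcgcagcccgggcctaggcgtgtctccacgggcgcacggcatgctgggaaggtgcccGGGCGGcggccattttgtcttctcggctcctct
Prpf39: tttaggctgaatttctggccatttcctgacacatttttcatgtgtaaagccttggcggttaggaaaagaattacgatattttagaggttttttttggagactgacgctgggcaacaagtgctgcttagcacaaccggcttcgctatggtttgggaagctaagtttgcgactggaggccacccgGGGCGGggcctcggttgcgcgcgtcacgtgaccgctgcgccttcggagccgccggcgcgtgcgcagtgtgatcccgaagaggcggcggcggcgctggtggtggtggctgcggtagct
Srsf11: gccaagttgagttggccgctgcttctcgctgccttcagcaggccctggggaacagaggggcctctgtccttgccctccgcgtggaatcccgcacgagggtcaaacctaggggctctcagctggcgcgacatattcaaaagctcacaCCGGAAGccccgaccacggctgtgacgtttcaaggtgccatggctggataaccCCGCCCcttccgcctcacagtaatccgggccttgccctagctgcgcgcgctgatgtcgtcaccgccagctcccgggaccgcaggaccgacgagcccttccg
Snrnp70 lies on the minus strand at chr7:45395693-45395992, Luc7l3 on the minus strand at chr11:94321914-94322213, Prpf39 on the plus strand at chr12:65036084-65036383, and Srsf11 on the minus strand at chr3:158036557-158036856. The window of Luc7l3 held 4 GC boxes and each of the other 3 windows held 1, and that of Srsf11 also held 1 ETS core. The RefSeq table had a promoter for 93 of the 110 tested members, 17 of them among the 18 that fell in 5xFAD. The GC box was found for 76.5% of these 17 genes and 59.2% of the other 76 members, against 65.5% of all tested genes with a promoter and 35.7% of the 32851 promoters in the table. The ETS core was found for 17.6% of the 17 and 30.3% of the 76, against 17.4% of tested genes and 8.86% of all promoters. CCAAT was found for 35.3% and 48.7%, against 42.5% and 37.4%, and TATAAA for 17.6% and 11.8%, against 9.13% and 13.6%. Shares of genes count a match at any listed start, whereas the share over the 32851 promoters counts each promoter by itself, so these 2 measures differ. These are matches of letters only.

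Among U1 snRNP proteins and their partners, 5 of 9 tested genes fell in 5xFAD relative to wild-type and rose in 5xFAD/Cd5l tg/wt relative to 5xFAD. The median log2 fold change over the 9 was -0.45 and 0.50. As a reference for this and the role groups below, 2.44% of all tested genes fell in the first comparison and 5.34% rose in the second. Snrnp70 stood at 211, 245 and 253 CPM in 5xFAD/Cd5l tg/wt libraries, 135, 139 and 136 CPM in 5xFAD, and 214, 224 and 221 CPM in wild-type libraries. All 5xFAD libraries lay below all others, and the remaining genotypes overlapped. The log2 fold change was -0.69 ± 0.07 (SE, adjusted p = 0.000247) in 5xFAD relative to wild-type, with 0.79 ± 0.07 (adjusted p = 0.000134) in 5xFAD/Cd5l tg/wt relative to 5xFAD. Where a gene has a pair of changes below, they are log2 fold changes (± SE where given) in these comparisons, in this order.

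Luc7l3, whose protein associates with U1 and influences the choice of 5′ splice sites (chromosome 11, 94178716 to 94212814), had 151, 194 and 202 CPM in 5xFAD/Cd5l tg/wt libraries, 107, 105 and 99.9 CPM in 5xFAD, and 161, 172 and 171 CPM in wild-type libraries. Its changes were -0.69 ± 0.10 and 0.81 ± 0.10. Prpf39, a homologue of a yeast U1 protein (chromosome 12, 65083107 to 65110160), had 45.0, 61.5 and 59.4 CPM in 5xFAD/Cd5l tg/wt libraries, 28.6, 30.2 and 30.7 CPM in 5xFAD, and 49.4, 49.6 and 51.6 CPM in wild-type libraries. In both genes the 5xFAD libraries did not overlap either other genotype. The Prpf39 span overlaps Fkbp3 on the opposite strand by 963 bases, and Fkbp3 held 230% of its counts, so that reads of the 2 genes may be mixed if strand was not used. Luc7l2 (-0.45 ± 0.09 and 0.64 ± 0.09) and Prpf40b (-0.51 ± 0.10 and 0.50 ± 0.10) also passed in both comparisons. The paralog Luc7l (-0.01 and 0.06) did not pass, nor did the U1 core genes Snrpa (0.19 and -0.10) and Snrpc (-0.02 and -0.09).

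**Figure D1:**
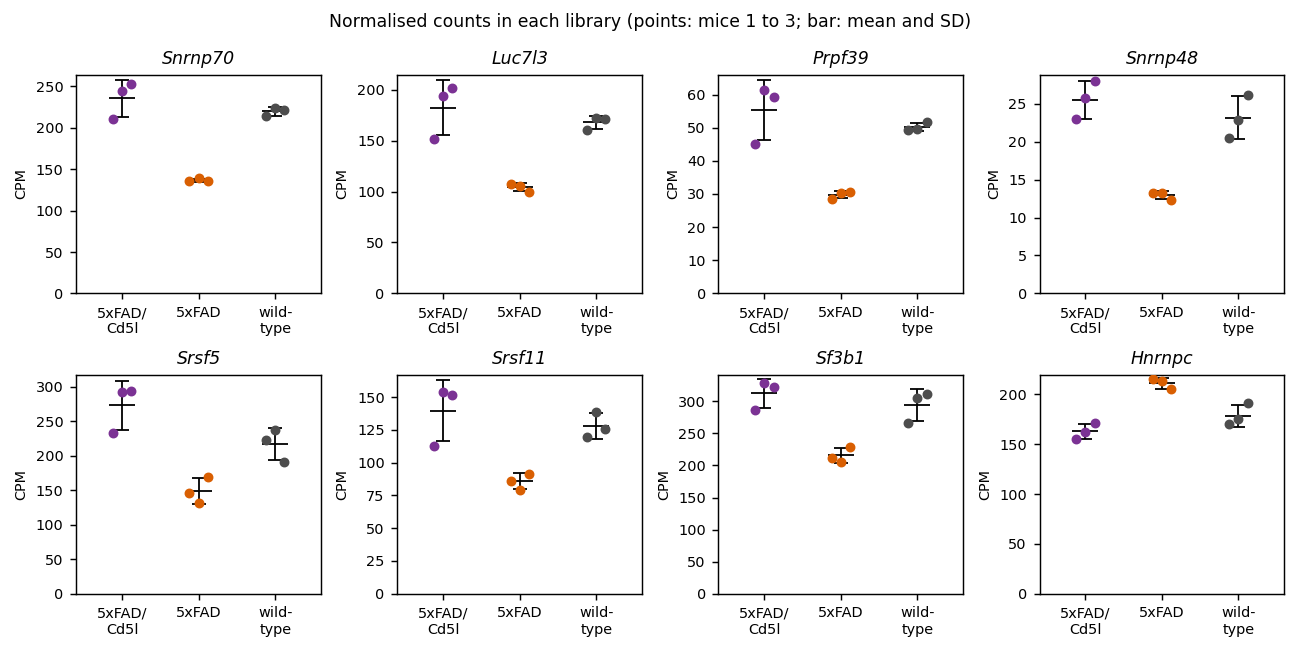
Normalised counts (CPM, linear axis from 0) of 8 splicing genes in 5xFAD/Cd5l tg/wt, 5xFAD and wild-type mice, with each library as a point and the mean and SD (n = 3) as bars. In 7 of the genes the 5xFAD points lie below all others, and in Hnrnpc they lie above all others.

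Of the SR proteins, 3 of 11 tested genes fell in 5xFAD and rose again in 5xFAD/Cd5l tg/wt relative to 5xFAD. Srsf5, which stimulates splicing from exonic enhancers (chromosome 12, 80992278 to 80997281), was the most abundant SR gene per length, at 53.4 RPKM (CPM divided by gene length in kilobases, mean over 9 libraries). It had 233, 293 and 294 CPM in 5xFAD/Cd5l tg/wt libraries, 146, 131 and 169 CPM in 5xFAD, and 223, 237 and 191 CPM in wild-type libraries, with log2 fold changes of -0.54 ± 0.12 (adjusted p = 0.0229) and 0.88 ± 0.12 (adjusted p = 0.0012). The 5xFAD libraries were again the lowest. Srsf11 (chromosome 3, 157716110 to 157742276) had 113, 154 and 152 CPM in 5xFAD/Cd5l tg/wt libraries, 86.3, 79.2 and 91.6 CPM in 5xFAD, and 120, 139 and 125 CPM in wild-type libraries, or -0.58 ± 0.11 and 0.70 ± 0.11.

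Srsf2, which encodes the SR protein SC35, changed less: it had 115, 116 and 123 CPM in 5xFAD/Cd5l tg/wt libraries, 97.9, 97.8 and 97.7 CPM in 5xFAD, and 114, 131 and 125 CPM in wild-type libraries, or -0.34 ± 0.07 and 0.27 ± 0.07. Its rise in 5xFAD/Cd5l tg/wt relative to 5xFAD was lost under 9 of 20 alternatives, the replicate block among them. Its span overlaps Mfsd11 and Mettl23 on the opposite strand, which held 30% and 12.8% of its counts. The other 8 SR genes did not pass in either comparison. Srsf1, the founding member of the family, stood at 189 ± 12.7 CPM in 5xFAD/Cd5l tg/wt, 167 ± 6.88 CPM in 5xFAD and 185 ± 12.8 CPM in wild-type mice (SD, n = 3). Srsf3 (0.01 and -0.07), Srsf4 (0.00 and 0.04) and Srsf10 (-0.08 and -0.01) were close to 0 in both.

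Of the 11 tested U2 snRNP genes, 1 (9.09%) passed in each of these comparisons, where 2.44% of all tested genes fell and 5.34% rose. Sf3b1, the largest subunit of the complex that holds the branch point (chromosome 1, 55024328 to 55066640), had 287, 328 and 322 CPM in 5xFAD/Cd5l tg/wt libraries, 212, 206 and 229 CPM in 5xFAD, and 266, 306 and 312 CPM in wild-type libraries. The changes were -0.45 ± 0.08 (adjusted p = 0.00922) and 0.53 ± 0.08 (adjusted p = 0.00239). Its partner Sf3b2 had 217 ± 10.4 CPM in 5xFAD/Cd5l tg/wt, 224 ± 3.26 CPM in 5xFAD and 225 ± 9.21 CPM in wild-type mice, and the other 9 genes ran from -0.09 to 0.19 in 5xFAD relative to wild-type.

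None of the 8 Sm core genes, whose proteins form the ring around most spliceosomal RNAs, passed edgeR's test in any comparison, with 0, 1 and 0 at an unadjusted p under 0.05 in 5xFAD relative to wild-type, 5xFAD/Cd5l tg/wt relative to 5xFAD and 5xFAD/Cd5l tg/wt relative to wild-type. Their median log2 fold change was 0.11 in 5xFAD relative to wild-type, against -0.09 in 5xFAD/Cd5l tg/wt relative to 5xFAD. Snrpn, the imprinted Sm gene of neurons, had the highest level per length of all members, at 181 RPKM, and 380 ± 15.4 CPM in 5xFAD/Cd5l tg/wt, 405 ± 15.8 CPM in 5xFAD and 390 ± 18.8 CPM in wild-type mice. None of the 8 genes of the U5 and U4/U6.U5 particles passed either (1, 0 and 0 at an unadjusted p under 0.05). Prpf8, the scaffold of the catalytic centre, had 242 ± 27.7 CPM in 5xFAD/Cd5l tg/wt, 234 ± 4.66 CPM in 5xFAD and 238 ± 6.89 CPM in wild-type mice. The helicase gene Snrnp200 had 133 ± 8.44 CPM in 5xFAD/Cd5l tg/wt, 125 ± 6.85 CPM in 5xFAD and 134 ± 1.39 CPM in wild-type mice.

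The largest change of any member that passed was that of Snrnp48, whose protein takes part in recognising the 5′ splice site of minor introns (chromosome 13, 38388914 to 38411641). It had 23.0, 25.7 and 28.0 CPM in 5xFAD/Cd5l tg/wt libraries, 13.2, 13.2 and 12.3 CPM in 5xFAD, and 20.5, 22.8 and 26.2 CPM in wild-type libraries. Its level in 5xFAD was 0.559 of that in wild-type mice (-0.84 ± 0.12, adjusted p = 0.00169), and it was 1.98-fold higher in 5xFAD/Cd5l tg/wt than in 5xFAD (0.98 ± 0.12, adjusted p = 0.000623). The other minor-spliceosome members, Snrnp35 (0.22 and -0.29) and Snrnp25 (-0.03 and -0.25), did not pass. Among the other Prp-named factors 2 of 5 moved in both comparisons: Prpf4b, a kinase of tri-snRNP proteins, at -0.45 ± 0.09 and 0.57 ± 0.09, and Prpf38b at -0.45 ± 0.08 and 0.49 ± 0.08. Prpf19, a ubiquitin ligase of the activated spliceosome, stood at 0.03 and -0.12 and did not pass.

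**Figure D2:**
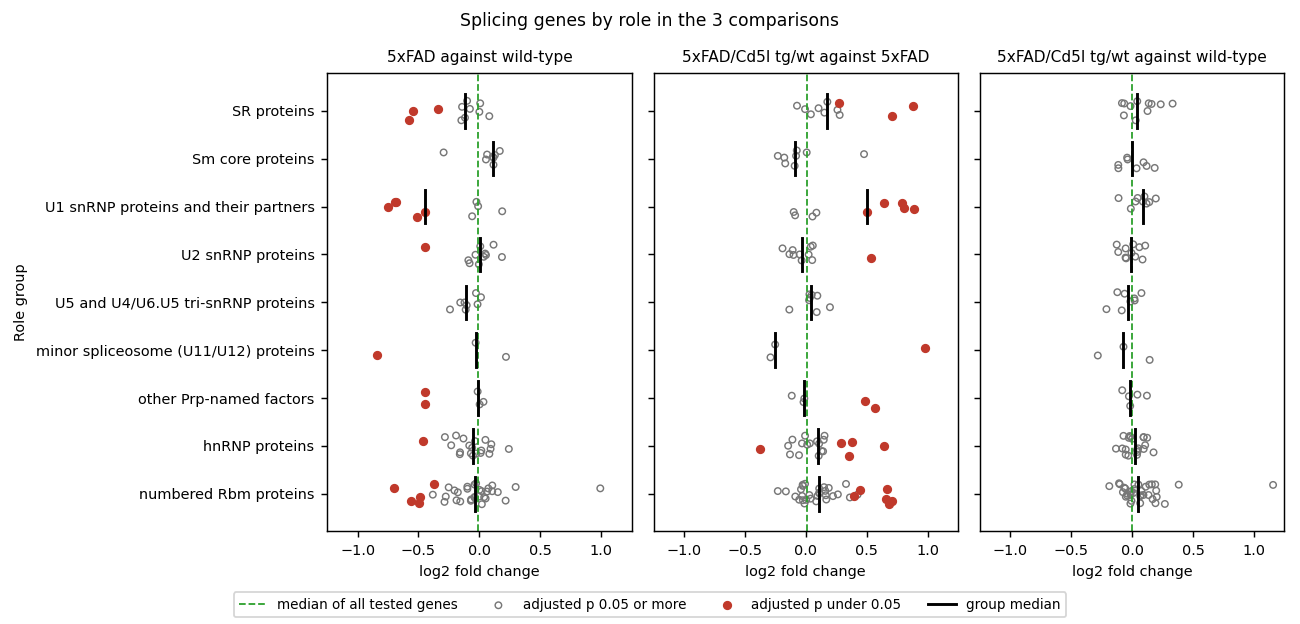
Log2 fold changes of the 110 tested splicing genes by role group in 5xFAD relative to wild-type, 5xFAD/Cd5l tg/wt relative to 5xFAD and 5xFAD/Cd5l tg/wt relative to wild-type. Filled points have an adjusted p under 0.05, black bars are group medians and the dashed line is the median of all tested genes; the U1 group has the medians farthest from that line in the first 2 panels, -0.45 and 0.50, and no point is filled in the third.

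The 20 hnRNP genes were the most abundant group per length, with a median of 33.9 RPKM. Only 1 of them (5%) fell in 5xFAD, where 2.44% of all tested genes did. Hnrnpdl, a relative of the AU-rich element binder Hnrnpd, had 186, 209 and 204 CPM in 5xFAD/Cd5l tg/wt libraries, 123, 109 and 152 CPM in 5xFAD, and 181, 176 and 173 CPM in wild-type libraries. It changed by -0.46 ± 0.10 and 0.64 ± 0.10. The 5xFAD/Cd5l tg/wt libraries were here also all above the wild-type ones, although the difference of 0.18 ± 0.10 did not pass (adjusted p = 0.533).

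In 5xFAD/Cd5l tg/wt relative to 5xFAD, 4 hnRNP genes rose (20%) and 1 fell (5%), against 5.34% and 0.888% of all tested genes. Besides Hnrnpdl these were Hnrnpu, a scaffold of nuclear RNA and chromatin, at 0.38 ± 0.08 (adjusted p = 0.0154), Hnrnph1, which binds runs of G, at 0.35 ± 0.09 (0.0306), and Hnrnpl, which binds CA repeats, at 0.29 ± 0.08 (0.0499). The rise of Hnrnpl was lost under 13 of 20 alternatives, among them the replicate block and other scalings, and that of Hnrnph1 under 9. In 5xFAD relative to wild-type none of the 3 passed edgeR's test (-0.28, -0.23 and -0.19), although the 5xFAD libraries lay below all wild-type libraries in each. Hnrnpu passed there as lower under 5 of 20 alternatives, DESeq2 among them. Its rise in 5xFAD/Cd5l tg/wt relative to 5xFAD was lost under 5 of 20. Hnrnpc went the other way. Its protein binds uridine tracts of nascent RNA (chromosome 14, 52310834 to 52341485), and it had 155, 163 and 171 CPM in 5xFAD/Cd5l tg/wt libraries, 215, 214 and 205 CPM in 5xFAD, and 170, 175 and 191 CPM in wild-type libraries. The 5xFAD libraries were the highest, and the change in 5xFAD/Cd5l tg/wt relative to 5xFAD was -0.37 ± 0.07 (adjusted p = 0.00767). Against wild-type, 5xFAD differed by 0.24 ± 0.07 without passing edgeR's test (adjusted p = 0.0801). It passed there as higher under 3 of 20 alternatives: DESeq2, without wild-type library 3, and when that library and 5xFAD/Cd5l tg/wt 2 and 3 were left out. Hnrnpa2b1 (-0.07 and 0.11) and Hnrnpa1 (-0.04 and 0.14), among the most abundant members, did not pass. Hnrnpa1 has near-identical copies elsewhere in the genome, and how reads with several matches were counted is not known here, so that its level is uncertain.

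Of the 35 tested numbered Rbm genes, 5 fell in 5xFAD (14.3%) and 6 rose in 5xFAD/Cd5l tg/wt relative to 5xFAD (17.1%). The shares over all tested genes were 2.44% and 5.34%. Rbm3 encodes a protein induced by mild cold (chromosome X, 8005214 to 8012119). It had 55.6, 56.5 and 49.1 CPM in 5xFAD/Cd5l tg/wt libraries, 32.3, 31.6 and 38.3 CPM in 5xFAD, and 60.3, 55.5 and 49.7 CPM in wild-type libraries, or -0.70 ± 0.10 (adjusted p = 0.00223) and 0.66 ± 0.10 (adjusted p = 0.00276). No 5xFAD library reached the lowest value of the other genotypes. Rbm25, a splicing regulator that carries RE/RD-rich and PWI domains, changed by -0.50 ± 0.08 and 0.66 ± 0.08, and Rbm5, which controls exons of apoptosis genes, by -0.49 ± 0.09 and 0.69 ± 0.09. Rbm33 changed by -0.56 ± 0.11 and 0.70 ± 0.11, and Rbm39, a relative of the large U2AF subunit, by -0.38 ± 0.07 and 0.44 ± 0.07. Rbm26 passed in the second comparison alone (0.40 ± 0.09, adjusted p = 0.0292; -0.29 ± 0.09 and adjusted p = 0.141 in the first), and whether its 2 changes differ in size was not tested. The rise of Rbm26 was lost under 6 of 20 alternatives, and it passed as lower in the first comparison under 2. Rbm46 had the largest difference of the members that did not pass in 5xFAD relative to wild-type, at 0.99 ± 0.54, on 68 counts over all libraries.

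**Figure D3:**
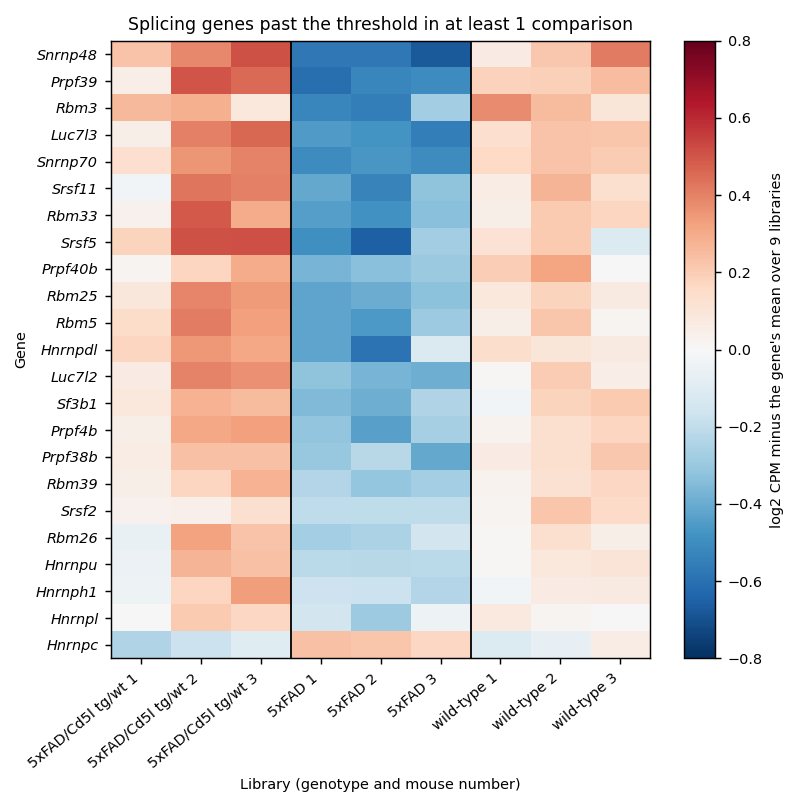
Log2 CPM minus the gene's mean over the 9 libraries (colour) for the 23 splicing genes past the threshold in at least 1 comparison, with libraries of 5xFAD/Cd5l tg/wt, 5xFAD and wild-type mice from left to right. The 5xFAD columns are lowest for every gene shown except Hnrnpc.

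The 18 genes that fell in 5xFAD changed there by a median of -0.50 on the log2 scale (-0.84 to -0.34) and of 0.66 (0.27 to 0.98) in 5xFAD/Cd5l tg/wt relative to 5xFAD. Since they were picked by passing, these medians only describe them. In 5xFAD/Cd5l tg/wt relative to wild-type their median was 0.12, from -0.07 to 0.33, with 15 of 18 above 0 and adjusted p-values from 0.239 to 0.979. The 95% interval of that difference lay within 1.5-fold in either direction for 17 of the 18 genes and for 101 of all 110, and differences within those intervals are not resolved. Over all 110 members, libraries of 5xFAD and wild-type did not overlap for 27 lower and 6 higher genes, where 13.9% and 10.4% of all tested genes did so. For 5xFAD/Cd5l tg/wt relative to 5xFAD 26 were higher and 7 lower without overlap (all genes 16.6% and 12.1%), and for 5xFAD/Cd5l tg/wt relative to wild-type 4 were higher and 2 lower (7.93% and 6.53%).

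How many genes passed, members and all tested genes alike, changed with single libraries. The fall of 18 genes in 5xFAD became 8 without wild-type library 2, 6 without 5xFAD library 1 and 7 without 5xFAD library 2, where the share of all tested genes that fell was 0.993%, 0.677% and 0.691%, against 2.44% with all libraries. It became 20 when wild-type 3 and both 5xFAD/Cd5l tg/wt 2 and 3 were left out (3.89% of all tested genes). These 3 were left out together because an earlier analysis of these data had found their regional marker genes to stand apart. Without them 13 members and 2.1% of all tested genes rose in 5xFAD/Cd5l tg/wt relative to 5xFAD, where 5xFAD/Cd5l tg/wt is then 1 library assumed to vary like the other genotypes. In 17 of the 18 genes 5xFAD/Cd5l tg/wt library 1 was the lowest of its genotype. Snrnp70, Luc7l3, Prpf39, Snrnp48, Rbm3 and Rbm25 fell in 5xFAD and rose in 5xFAD/Cd5l tg/wt relative to 5xFAD under all 20 alternative settings and left-out libraries that were tried.

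What the genes share beyond their names was looked up in the GENCODE M21 annotation, in which all 110 tested members were found. A transcript class was counted per gene, and the deposited counts do not separate transcripts. Of the 18 genes that fell in 5xFAD and rose in 5xFAD/Cd5l tg/wt relative to 5xFAD, 17 have at least 1 annotated transcript with a retained intron, or 94.4%, against 64.1% of the 92 other tested members and 55.8% of 14439 other tested protein-coding genes. A transcript marked as a target of nonsense-mediated decay, the pathway that removes RNAs with early stop codons, is annotated for 16 of the 18, or 88.9%, against 33.7% and 26.9%. Rbm5 has 13 retained-intron transcripts annotated, Srsf11 has 11 and Snrnp70 has 9, whereas Rbm33 has none of either class. Outside the 18, Hnrnpk also has 13, while Hnrnpl has 7 and Sf3b2 has 6.

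The 18 genes also have more annotated transcripts in all (median 10.5, against 5 in the other members and 5 in other protein-coding genes) and more exons (12.5, against 8.5 and 9). Their spans were longer than those of the other members, with a median of 26610 bases against 13976, and close to the 25599 bases of other protein-coding genes. With 4 or more retained-intron transcripts, the median log2 fold change of 22 members was -0.11 in 5xFAD relative to wild-type and that of 1693 other protein-coding genes -0.07. With none, 34 members had -0.02 and 6379 other genes 0.02. No test was made of these shares, since the 18 genes were chosen by their change.

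**Figure D4:**
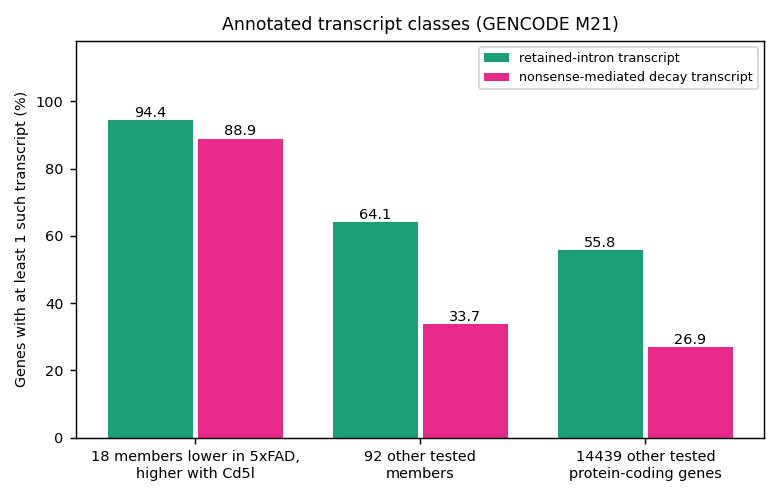
Share of genes (%, axis from 0) with at least 1 annotated retained-intron transcript and at least 1 annotated nonsense-mediated decay transcript in GENCODE M21. The 18 members that were lower in 5xFAD and higher in 5xFAD/Cd5l tg/wt stand at 94.4% and 88.9%, the 92 other tested members at 64.1% and 33.7%, and 14439 other tested protein-coding genes at 55.8% and 26.9%.

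Other splicing genes, from 6 lists of proteins outside the naming rule, gave 11 falls among 159 tested genes in 5xFAD relative to wild-type. They gave 19 rises and 1 fall in 5xFAD/Cd5l tg/wt relative to 5xFAD. Of all tested genes, 2.44% fell in the first comparison, and 5.34% rose and 0.888% fell in the second. The lists were chosen with earlier results of these data known. Kinases, phosphatases and speckle proteins held most of them, with 8 of 27 lower in 5xFAD and 11 of 27 higher in 5xFAD/Cd5l tg/wt relative to 5xFAD. Clk1, which phosphorylates SR proteins, changed by -1.10 ± 0.10 and 1.27 ± 0.10, Leng8 by -1.03 ± 0.11 and 1.33 ± 0.11, Pnisr by -0.86 ± 0.11 and 1.16 ± 0.11, and the Clk1 paralog Clk4 by -1.04 ± 0.13 and 1.21 ± 0.13. Of the minor-spliceosome proteins, Rnpc3 alone passed of 8, at -1.12 ± 0.11 and 1.32 ± 0.11. It is the protein that links the U11 and U12 particles, and Snrnp48 belongs to the same U11/U12 particle.

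Among Prp19-complex, exon-junction and catalytic-step proteins 2 of 30 fell in 5xFAD (6.67%) and 3 rose in 5xFAD/Cd5l tg/wt relative to 5xFAD (10%). The shares of all tested genes were 2.44% and 5.34%. Srrm1 (-0.45 ± 0.08 and 0.63 ± 0.08) and Srrm2 (-0.40 ± 0.08 and 0.53 ± 0.08), scaffolds rich in serine and arginine that are also in the list of speckle proteins, passed in both. Of the snRNP and U1/U2 auxiliary proteins 0 of 34 passed in the first comparison (7 at an unadjusted p under 0.05). In the second 1 rose (2.94%), a share below that of all tested genes, with 5 at an unadjusted p under 0.05. None of the 16 tested genes of snRNP assembly and import passed in any comparison (1, 2 and 0 at an unadjusted p under 0.05). Among 46 neuronal and tissue regulators 2 fell in the first comparison (4.35%), and 5 rose (10.9%) and 1 fell (2.17%) in the second. Tia1 (-0.78 ± 0.14 and 1.03 ± 0.14) and Rbmx (-0.48 ± 0.09 and 0.45 ± 0.09) passed in both. Ewsr1 (0.50 ± 0.10) and Tial1 (0.45 ± 0.10) rose in 5xFAD/Cd5l tg/wt relative to 5xFAD, and Rbms3 fell there by 0.52 ± 0.14 on the log2 scale.

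Other RNAs moved with these genes. Of 10 nuclear-retained long non-coding RNAs, 7 fell in 5xFAD and 8 rose in 5xFAD/Cd5l tg/wt relative to 5xFAD. Of all tested genes 2.44% fell and 5.34% rose in these comparisons. Malat1, a speckle RNA, had 291, 557 and 534 CPM in 5xFAD/Cd5l tg/wt libraries, 103, 106 and 122 CPM in 5xFAD, and 358, 421 and 334 CPM in wild-type libraries. The 5xFAD libraries were the lowest, as in the summed 18 genes, and 5xFAD/Cd5l tg/wt library 1 was again the lowest of its genotype. Long non-coding RNA genes took 1.39% to 1.65% of counts in 5xFAD/Cd5l tg/wt, 1.15% to 1.19% in 5xFAD and 1.35% to 1.53% in wild-type libraries. Gene models of the biotype TEC, which await experimental evidence, took 0.0969% to 0.121% in 5xFAD/Cd5l tg/wt, 0.0812% to 0.0817% in 5xFAD and 0.0955% to 0.108% in wild-type libraries. Mitochondrially encoded genes took 4.96% to 5.19% in 5xFAD/Cd5l tg/wt, 4.61% to 5.09% in 5xFAD and 4.33% to 5.21% in wild-type libraries, ranges that overlap.

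Of cell type markers, the 7 endothelial genes summed to 217 to 259 CPM in 5xFAD/Cd5l tg/wt, 122 to 157 CPM in 5xFAD and 202 to 226 CPM in wild-type libraries, all 7 detected, with 3 lower in 5xFAD and 6 higher in 5xFAD/Cd5l tg/wt relative to 5xFAD. The 8 microglial genes did not follow that order: they summed to 650 to 722 CPM in 5xFAD/Cd5l tg/wt, 524 to 684 CPM in 5xFAD and 295 to 331 CPM in wild-type libraries, and all 8 rose in 5xFAD. Of all tested genes 2.44% fell and 1.06% rose in 5xFAD, and 5.34% rose in 5xFAD/Cd5l tg/wt relative to 5xFAD. Neuronal markers summed to 7289 to 8208 CPM in 5xFAD/Cd5l tg/wt, 7381 to 7641 CPM in 5xFAD and 7571 to 7785 CPM in wild-type libraries, and 0 of 8 passed in any comparison (0, 3 and 4 at an unadjusted p under 0.05). The part of endothelial RNA or of nuclear-retained RNA in the changes of the splicing genes was not tested.

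**Figure D5:**
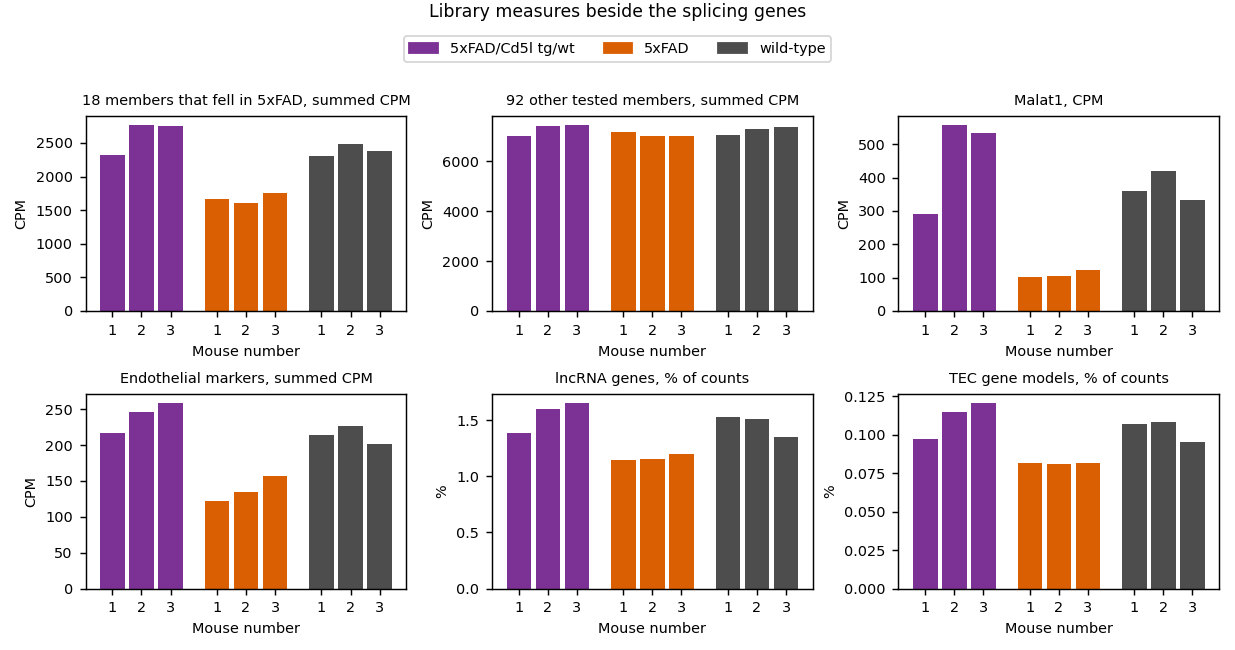
Values of each library (bars from 0, mice 1 to 3) in 5xFAD/Cd5l tg/wt, 5xFAD and wild-type mice for the summed CPM of the 18 members that fell in 5xFAD, of the 92 other tested members, of Malat1 and of 7 endothelial markers, and for the share of counts in long non-coding RNA genes and TEC gene models. The 5xFAD bars are the lowest in all panels except that of the 92 other members, where the genotypes overlap.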

How the data were processed

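The authors deposited 1 table of read counts for 56748 genes in 9 libraries, without normalization, and the genome build is GRCm39 per the submitters' processing notes. The sources used here do not give the aligner, the counter, or whether strand was used. Gene lengths in bases come from the same deposited table. Counts were filtered with filterByExpr (minimum count 10, minimum total 15), scaled by TMM and fitted with edgeR 4.0.16 (quasi-likelihood test, R 4.3.3) over all 9 libraries, with genotype as the only term. P-values were adjusted over all 17575 tested genes. The SE is the absolute log2 fold change divided by the square root of F, and 95% intervals use a t quantile with 6 degrees of freedom. P-values weigh a difference between genotypes against the spread between mice, estimated over all 9 libraries and moderated across genes. The model was tested on simulated data with changes placed in genes drawn from all tested genes. It recovered 36% to 43% of 1.5-fold, 58% to 72% of 2-fold and 96% to 98% of 4-fold changes. Over all tested genes, many changes of 2-fold or less can therefore be missed. Recovery among the splicing genes alone was not simulated. Their median SE was 0.0959 on the log2 scale in 5xFAD relative to wild-type. Members and lists were chosen with earlier results of these data known. Named genes were, in each comparison, up to 10 members per direction that passed, by smallest p, in each role group the 3 with the highest RPKM and the one with the smallest p, and in each other list up to 4 with the smallest p. Luc7l, Snrpc, Srsf3, Srsf4, Srsf10, Rbm46 and Hnrnpk were named after their values were seen, and a few genes that the rule would name are not reported here. Alternatives covered scaling, filters, DESeq2 1.42.0, limma-voom (limma 3.58.1), a replicate block, gene-length offsets, the libraries compared alone, and left-out libraries.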

Additional observations from a re-analysis of the deposited data

How the results depend on the processing

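The count of splicing genes lower in 5xFAD relative to wild-type, 18, was 18 to 19 under the scalings, filters, tools, replicate block and length offsets tried, and ran from 6 to 20 when 1 library was left out, as the share of all tested genes that fell ran from 0.677% to 3.39%. The count higher there, 0, was 1 with DESeq2, 0 to 1 with 1 library left out, and 2 when wild-type 3 and both 5xFAD/Cd5l tg/wt 2 and 3 were removed. Removing those 3 libraries left 13 members higher (2.1% of all tested genes) and 2 lower (1.28%) in 5xFAD/Cd5l tg/wt relative to 5xFAD, with a median log2 fold change over the members of -0.0018, and of -0.0435 for 5xFAD/Cd5l tg/wt relative to wild-type. With 1 library left out, 16 to 24 members were higher and 1 lower in 5xFAD/Cd5l tg/wt relative to 5xFAD, as 1.48% to 7.67% of all tested genes were higher. In 5xFAD/Cd5l tg/wt relative to wild-type, 1 gene (Srsf5) was higher without a filter, and 0 to 1 with 1 library left out. The cause of these shifts was not tested. The labels do not say whether a mouse number is shared between genotypes. Same-numbered libraries correlated at -0.1 to 0.154 after genotype means were removed, and differently numbered ones at -0.16 to 0.146. With 3 libraries per genotype, these correlations cannot decide whether the libraries are paired. With the replicate block 18 genes were lower in 5xFAD relative to wild-type, and 20 were higher and 1 lower in 5xFAD/Cd5l tg/wt relative to 5xFAD, with 0 passing relative to wild-type. No gene that passed changed sign under these alternatives. Of the 22 rises, 13 passed under all 20 alternatives, and Hnrnpl, Hnrnph1 and Srsf2 were lost most often (adjusted p up to 0.374, 0.34 and 0.213); the block removed the rises of Hnrnpl and Srsf2. The median of all genes moved by less than 0.1 under each scaling. The median half-width of a member's 95% interval was 0.235 on the log2 scale in 5xFAD relative to wild-type.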
